A study of Homo sapiens with 4 samples.

Results

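Tetraspanins are a family of small membrane proteins that cross the membrane several times and pack side by side with their partners into patches called tetraspanin-enriched microdomains. They bind integrins, immunoglobulin-domain proteins, growth factor receptors and the protease ADAM10, and so take part in adhesion, shedding of surface proteins and the sorting of cargo into vesicles that cells release. In the prostate they are best known through CD82, also called KAI1, which was found as a suppressor of metastasis in prostate cancer, and through CD9, CD63 and CD81, which are used as markers of released vesicles. The family was taken as the protein-coding genes named TSPAN followed by a digit, together with CD9, CD37, CD53, CD63, CD81, CD82, CD151, UPK1A and UPK1B, and 31 of the 60483 gene identifiers in the count tables met this rule. The rule used names only and no measured value.

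The cells were C4-2, an androgen-independent human prostate cancer line derived from LNCaP, and RNA-seq read counts per gene were available for 4 libraries. In the 2 control libraries (C4-2-CON) the phenotype was given as control, and in the 2 resistant libraries (C4-2-ENZ) as enzalutamide-resistant. Enzalutamide blocks the androgen receptor. Culture lasted 1 month with or without the drug, so exposure to the drug and resistance cannot be told apart. Both groups came from 1 cell line at passage 20 to 30 in RPMI medium with 10% serum. A vehicle for the control cells is not named in the labels, and FGF-2 appears in the medium description without a statement of which cells received it. The labels do not say that replicates were separate cultures, so p-values measure the spread between these libraries only, which may be technical.

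The libraries held from 25589724 to 45033885 gene counts, and 1 CPM, the unit of a count relative to the library size after TMM scaling (trimmed mean of M values), stood for 23.8 to 48.2 of them. The resistant libraries held more gene counts, although all records came to 99963420 and 103288697 in control and 100999016 and 90539723 in resistant libraries. Records assigned to no gene were 71.1% to 74.4% in control and 55.4% to 56.9% in resistant libraries. Those not aligned were 37.0% and 34.2% in control and 20.3% and 20.7% in resistant libraries. This difference goes with the group, and its part in the results was not tested. Markers of prostate luminal epithelium were present in all 4 libraries: all 7 passed the filter on low counts, 6 higher and 1 lower in resistant cells, with a summed level of 2725 and 2729 CPM in control and 4026 and 4043 CPM in resistant libraries. Of 7 leukocyte markers, 6 did not pass, PTPRC was at most 0.0954 CPM as a group mean and CD3E had no count, and the list summed to 1.06 to 1.78 CPM. Of 4 endothelial markers, PECAM1 and CDH5 were below 0.06 CPM as group means, VWF was lower in resistant cells, and the list summed to 3.06 to 4.66 CPM. KDR was called higher, from 0 and 1 counts in control and 24 and 13 in resistant libraries. It passed the filter through the resistant group alone and so had to differ. Of 5 fibroblast markers, COL1A2 had no count, and DCN and PDGFRA did not pass the filter. COL1A1 was lower in resistant cells (7.07 CPM in control and 5.31 in resistant) and COL3A1 higher (1.24 and 1.91 CPM). The fibroblast list summed to 7.12 to 9.41 CPM. Of 3 neural markers, SOX10 had no count, GFAP did not pass and RBFOX3 was not called, and they summed to 0.53 to 1.13 CPM. In bulk RNA, fewer cells with a transcript and less of it per cell cannot be told apart.

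Of the 31 tetraspanins, 30 had at least 1 count and 24 passed the filter, which is edgeR's filterByExpr with a minimum count of 10. Among these 24, 15 were higher and 5 lower in resistant cells in edgeR's quasi-likelihood test (adjusted p below 0.05), and 4 were not called. Over all 20325 genes tested, 64.7% were called, 33.0% higher and 31.7% lower, and over protein-coding genes 42.3% were higher and 31.4% lower. The calls included 6 rises and 2 falls of at least 2-fold, or 33.3% of those tested, against 17.7% of all genes tested. Among these rises is UPK1A, which passed the filter through the resistant group alone and so had to differ. The median log2 fold change of the tested tetraspanins was 0.41, beside -0.02 over all genes and 0.09 over protein-coding genes. Scaling by total counts gave 17 higher and 4 lower, and moved the share of all calls that were higher from 51.0% to 64.4%. With a correction for the length and GC content of each gene, the same 5 stayed lower, 11 of the 15 stayed higher, CD37, CD81 and TSPAN31 were called lower, and the median was 0.16. Called-higher members had a median GC content of 56.1% and called-lower members one of 44.4%, and the part of GC content in the split was not tested beyond that correction.

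Levels between genes are compared as CPM per kilobase of merged exons. CD9 and TSPAN13 led in control cells, at 102 and 98.1 CPM per kilobase, followed by CD63 at 89.6. In resistant cells CD63 led at 133 CPM per kilobase, CD9 was next at 114, and TSPAN13 stood at 42.8, just behind CD151 at 44.1. The remaining members with more than 10 CPM per kilobase in both groups were TSPAN3, TSPAN15, CD81 and TSPAN1. TSPAN33 lay near that level, at 8.74 in control and 12.5 in resistant cells. As a share of the summed level of all 31 members, TSPAN13 made up 22.5% ± 0.652 in control cells and 8.76% ± 0.0879 in resistant cells (SD, n = 2). The share of CD63 was 20.5% ± 0.0773 in control and 27.1% ± 0.21 in resistant libraries, that of CD151 5.25% ± 0.436 and 9.03% ± 0.128, and that of CD9 23.5% ± 0.0355 and 23.2% ± 0.119. The summed level itself was 437 ± 15.8 CPM per kilobase in control and 489 ± 3.19 in resistant libraries. Shares within a library sum to a whole, so the fall in the share of 1 abundant member moves those of the others.

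**Figure D1:**
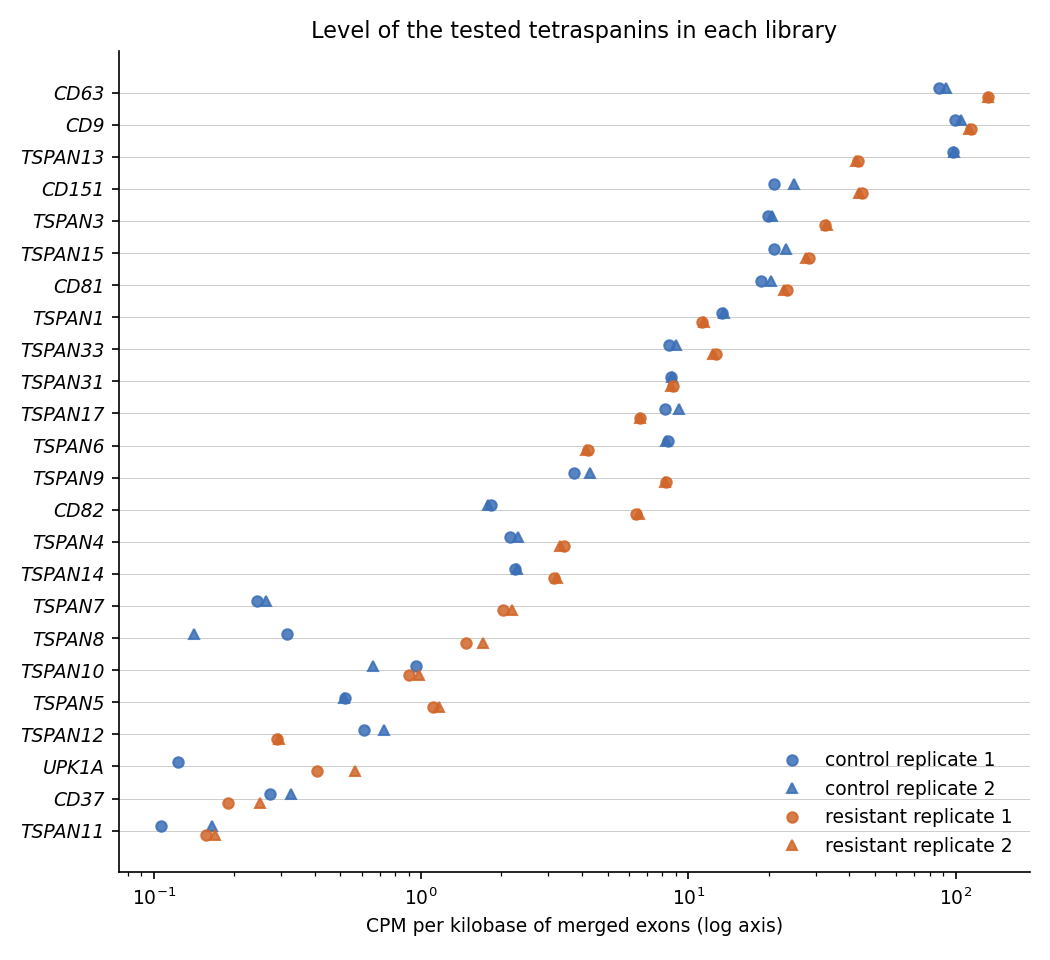
Level of each of the 24 tested tetraspanins in each library, as CPM per kilobase of merged exons on a log axis, with members ordered by mean level. Circles and triangles are replicates 1 and 2, and UPK1A in control replicate 2, with no count, is not drawn. CD63, CD9 and TSPAN13 stand at the top, and the control and resistant points of TSPAN7, TSPAN8, CD82 and TSPAN13 lie far apart.

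**Figure D2:**
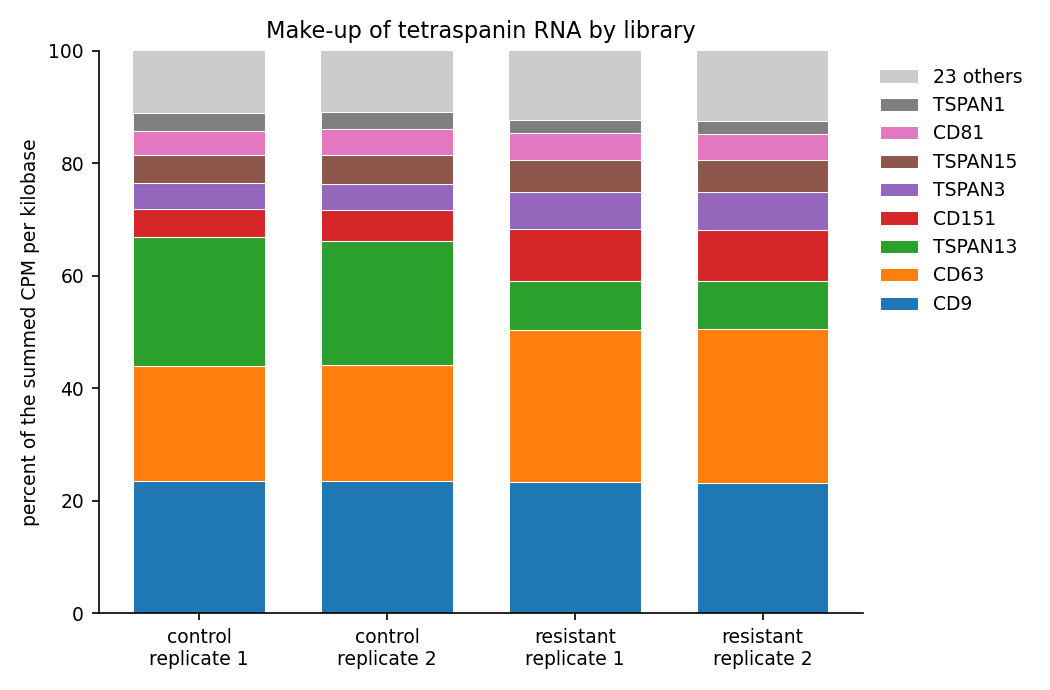
Share of each of the 8 most abundant tetraspanins in the summed CPM per kilobase of all 31, as stacked percentages for each library. The TSPAN13 segment is 22.03% to 22.95% of the control bars and 8.70% to 8.82% of the resistant bars, while the CD9 segment is 23.2% to 23.5% in all 4.

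The vesicle and adhesion tetraspanins were CD9, CD63, CD81, CD82, CD151 and TSPAN4. All 6 were called higher in resistant cells, where 33.0% of all genes tested and 42.3% of protein-coding genes tested were. Corrected for length and GC content, 3 of the 6 were higher (CD63, CD82 and CD151), CD81 was lower, and CD9 and TSPAN4 were not called. CD82 showed the largest rise of the group. Its gene (ENSG00000085117.10) lies on chromosome 11 at 44564427 to 44620363 on the plus strand in GRCh38. CD82 had 7.43 and 7.20 CPM in the control libraries and 25.8 and 26.5 CPM in the resistant libraries. Both resistant libraries lay well above both controls, a 3.58-fold rise (edgeR adjusted p = 7.35e-10, log2 fold change 1.84, SE 0.0688). With the length and GC correction its log2 fold change was 1.59.

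CD151, which holds laminin-binding integrins in tetraspanin patches, had 82.7 and 97.9 CPM in control and 176 and 171 CPM in resistant libraries. The groups did not overlap, although the controls were spread more widely than the resistant libraries (edgeR adjusted p = 1.2e-07, log2 fold change 0.94, SE 0.0646). The value was 0.62 with the length and GC correction. CD151 shares 257 exonic bases with POLR2L on the opposite strand, and POLR2L was lower in resistant cells (log2 fold change -0.54). TSPAN4, a tetraspanin of migrasomes that starts 2.98 kilobases downstream of CD151, had 12.5 and 13.4 CPM in control and 20.1 and 19.4 CPM in resistant libraries (edgeR adjusted p = 7.7e-06, log2 fold change 0.60). TSPAN4 was no longer called once length and GC content were corrected for (0.11, adjusted p = 0.122). Of the neighbouring pair, CD151 kept its call under that correction and TSPAN4 did not.

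CD63, a tetraspanin of late endosomes, lysosomes and exosomes, had 229 and 243 CPM in control and 349 and 349 CPM in resistant libraries. It rose 1.48-fold (edgeR adjusted p = 1.28e-07, log2 fold change 0.57, SE 0.0391), and the correction left the value at 0.56. The antisense gene AC009779.2 shares 237 exonic bases with CD63 and also rose, from 18.3 ± 0.0905 to 30.5 ± 1.57 CPM (SD, n = 2). Without a stated strand setting, reads of the pair cannot be told apart there.

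CD9 and CD81, the other 2 vesicle markers, moved little. CD9 had 415 and 438 CPM in control and 477 and 469 CPM in resistant libraries, a 1.11-fold difference (edgeR adjusted p = 0.00437, log2 fold change 0.15, SE 0.0373). The groups of CD9 lay close together without overlapping. CD9 was no longer called under the correction (0.04, adjusted p = 0.226) or without resistant replicate 1 (0.15, adjusted p = 0.063), and total count scaling gave 0.34. CD81, part of the B cell coreceptor and an entry receptor of hepatitis C virus, had 138 and 151 CPM in control and 173 and 168 CPM in resistant libraries (edgeR adjusted p = 0.00103, log2 fold change 0.23, SE 0.0476). The direction of CD81 turned with the correction, to -0.35 (adjusted p = 1.69e-07), while total count scaling gave 0.42. CD81 has the highest GC content of the 31 members, at 64.9%, and 7394 merged exonic bases.

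The 6 tetraspanins TSPAN5, TSPAN10, TSPAN14, TSPAN15, TSPAN17 and TSPAN33 form the TspanC8 group, which binds the sheddase ADAM10, carries it out of the endoplasmic reticulum and directs it to its substrates. Of these, 4 were called higher, 1 lower and 1 not called. Calls in either direction covered 64.7% of all genes tested and 73.7% of protein-coding genes tested. Corrected for length and GC content, 3 were higher, 1 lower and 2, TSPAN10 and TSPAN14, not called. TSPAN5, a regulator of Notch cleavage by ADAM10, was the only one past 2-fold. This gene (ENSG00000168785.6), on chromosome 4 at 98470367 to 98658629 on the minus strand, had 3.86 and 3.81 CPM in control and 8.23 and 8.69 CPM in resistant libraries. The 2 groups were clearly apart (edgeR adjusted p = 1.4e-06, log2 fold change 1.14, SE 0.103), and per kilobase TSPAN5 was the least abundant of the 6 in control cells, at 0.516 CPM, and above TSPAN10 in resistant cells, at 1.14 against 0.943 CPM. Before division by length, TSPAN5 and TSPAN10 were level in control cells, at 3.84 and 3.83 CPM. Their order there rests on merged exonic lengths of 7430 and 4745 bases.

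TSPAN15, which directs ADAM10 to N-cadherin, was the most abundant of the group. It made up 51.2% ± 0.911 of the summed TspanC8 level per kilobase in control cells and 53.3% ± 0.428 in resistant cells (SD, n = 2), and rose from 58.5 ± 4.58 to 73.7 ± 1.45 CPM (log2 fold change 0.33, or 0.52 with total count scaling, edgeR adjusted p = 0.000168). TSPAN33 and TSPAN17 had near-equal shares in control cells, at 20.3% ± 0.437 and 20.2% ± 0.44. In resistant cells TSPAN33 stood at 24.0% ± 0.0899 and TSPAN17 at 12.6% ± 0.126. TSPAN33 had risen from 24.0 to 34.5 CPM (log2 fold change 0.52, edgeR adjusted p = 8.16e-06) and TSPAN17 had fallen from 45.4 to 34.4 CPM (log2 fold change -0.40, edgeR adjusted p = 0.000102). For TSPAN17 total count scaling gave -0.21 and the correction -0.72. TSPAN14, another ADAM10 partner in Notch signalling, went from 40.6 to 57.1 CPM (log2 fold change 0.49, edgeR adjusted p = 1.62e-06), but its value was -0.02 (adjusted p = 0.656) with the length and GC correction. It has the longest merged exons of the family, 17888 bases. TSPAN10, known from pigment cells, had 4.53 and 3.14 CPM in control and 4.29 and 4.66 CPM in resistant libraries, which overlap (adjusted p = 0.223). It was called higher with total count scaling (0.42, adjusted p = 0.038) and without control replicate 1 (0.51, adjusted p = 0.00453).

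Among the 6 tetraspanins known from epithelia and their tumours, 2 rose, 3 fell and 1, TSPAN31, was not called, beside 33.0% higher and 31.7% lower over all genes tested. TSPAN13 showed the clearest fall. Its gene (ENSG00000106537.7) lies on chromosome 7 at 16753535 to 16784536 on the plus strand. TSPAN13 had 217 and 219 CPM in control and 96.3 and 94.1 CPM in resistant libraries, and each pair agreed to within 3 CPM. The fall was 2.29-fold (edgeR adjusted p = 3.02e-10, log2 fold change -1.20, SE 0.0398), or -0.88 with the correction. TSPAN6, which has been studied in the handling of amyloid precursor protein, fell by 1.00 on the log2 scale, from 37.8 ± 0.509 to 18.9 ± 0.254 CPM (edgeR adjusted p = 2.19e-08), and by 0.71 with the correction. Its fold before rounding, 1.999, is just short of 2, so TSPAN6 is not counted among the falls of at least 2-fold.

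TSPAN8, a tetraspanin of gut epithelium that is raised in several carcinomas, rose from a low level. The gene (ENSG00000127324.7), on chromosome 12 at 71125085 to 71441898 on the minus strand, had 0.797 and 0.356 CPM in control and 3.71 and 4.29 CPM in resistant libraries. These rest on 19 and 10 counts in control and 179 and 178 in resistant libraries. The log2 fold change was 2.83 (SE 0.256, edgeR adjusted p = 1.4e-06), and it was 3.48 when control replicate 1 was left out and 2.33 when control replicate 2 was.

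TSPAN3, a widely expressed member, had 169 and 175 CPM in control and 277 and 281 CPM in resistant libraries, a 1.62-fold rise without overlap (edgeR adjusted p = 1.85e-08, log2 fold change 0.70, SE 0.0383). The correction gave 0.43. TSPAN1, an epithelial tetraspanin studied in prostate cancer, had 31.6 and 32.2 CPM in control and 26.8 and 27.0 CPM in resistant libraries (edgeR adjusted p = 0.00184, log2 fold change -0.25, SE 0.0546). That small difference was not called with total count scaling (-0.06, adjusted p = 0.361) or without a count filter (-0.15, adjusted p = 0.117), and the correction gave -0.16. TSPAN31, often co-amplified with CDK4 in sarcomas, had group means of 46.6 and 46.9 CPM and overlapping groups (adjusted p = 0.89), although it was called higher with total count scaling (0.20, adjusted p = 0.00331) and lower with the correction (-0.11, adjusted p = 0.0189). Of its merged exons 25.4% are shared with CDK4 on the opposite strand, and CDK4 was not called either (adjusted p = 0.121).

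TSPAN7, a neural tetraspanin whose loss causes X-linked intellectual disability, had the largest fold change of the family. The gene (ENSG00000156298.11) lies on chromosome X at 38561370 to 38688920 on the plus strand. TSPAN7 had 0.755 and 0.820 CPM in control and 6.31 and 6.80 CPM in resistant libraries, from 18 and 23 and then 304 and 282 counts. It rose 8.26-fold (edgeR adjusted p = 1.62e-08, log2 fold change 3.05, SE 0.165), with 3.06 under the length and GC correction. The gene AF241726.2, which shares 676 exonic bases with it on the same strand, had no count in any library.

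TSPAN9 is a platelet and epithelial member (ENSG00000011105.10) on chromosome 12 at 3077355 to 3286564 on the plus strand. It had 25.8 and 29.6 CPM in control and 57.0 and 56.7 CPM in resistant libraries. The groups were far apart (edgeR adjusted p = 3.78e-08, log2 fold change 1.03, SE 0.062), and the correction gave 0.64. TSPAN11, of the same group, was not called, with overlapping groups at means of 0.966 and 1.16 CPM (adjusted p = 0.409).

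TSPAN12, which joins the receptor FZD4 for the retinal ligand Norrin, fell. The gene (ENSG00000106025.7), on chromosome 7 at 120787320 to 120858402 on the minus strand, had 2.06 and 2.46 CPM in control and 0.975 and 0.989 CPM in resistant libraries. Both resistant values lay below both controls (edgeR adjusted p = 0.000148, log2 fold change -1.21, SE 0.189). Of 4 other genes of this receptor, 2 were higher and 2, FZD4 and the Norrin gene NDP, were lower. Over all genes tested, 33.0% were higher and 31.7% lower. FZD4 fell (log2 fold change -0.53, or -0.34 with total count scaling, edgeR adjusted p = 5.11e-07), while the coreceptors LRP5 and LRP6 rose (0.88 and 0.64). With the correction LRP5 had 0.41.

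The uroplakin tetraspanins belong to the plaques of the bladder lining. UPK1A (ENSG00000105668.6), on chromosome 19 at 35666516 to 35678483 on the plus strand, had 4 and 0 counts in control and 27 and 32 counts in resistant libraries, or 0.168 and 0 CPM against 0.56 and 0.772 CPM. It was called higher (edgeR adjusted p = 0.00149, log2 fold change 3.04, SE 0.65), but it passed the filter through the resistant group alone. The size rests on 4 control counts, all in replicate 1: it was 1.96 when control replicate 2 was left out, and leaving out control replicate 1 leaves no control count to set a fold against. UPK1B had 2 to 5 counts per library and was not tested. Of the other uroplakins, UPK3A rose (log2 fold change 1.34, from 2.06 to 5.22 CPM), UPK3BL1 was called higher with a log2 fold change of 0.57, UPK3B was not called, and UPK2, a defining marker of urothelium, was at most 0.226 CPM as a group mean. The 3 urothelium markers, which include UPK3A, summed to 2.27 and 2.60 CPM in control and 6.62 and 5.72 CPM in resistant libraries, and their part in the UPK1A result was not tested.

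Of the 3 tetraspanins of leukocytes, CD37 passed the filter and CD53 and TSPAN32 did not. CD37 had 27 and 38 counts in control and 38 and 43 in resistant libraries, or 1.13 and 1.35 CPM in control and 0.788 and 1.04 CPM in resistant libraries (adjusted p = 0.104), and it was called lower with the length and GC correction (-0.71, adjusted p = 0.0186). Parts of CD37 are shared with TEAD2 (319 exonic bases) on the opposite strand, which was lower in resistant cells (log2 fold change -0.35). CD53 had 1 to 3 counts and TSPAN32 had 1 to 5 counts per library. Of the other members that did not pass the filter, TSPAN16 had 6 to 10 counts, TSPAN18 2 to 19, TSPAN2 2 to 11 and TSPAN19 none. None of the 7 untested members exceeded 0.394 CPM in any library.

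**Figure D3:**
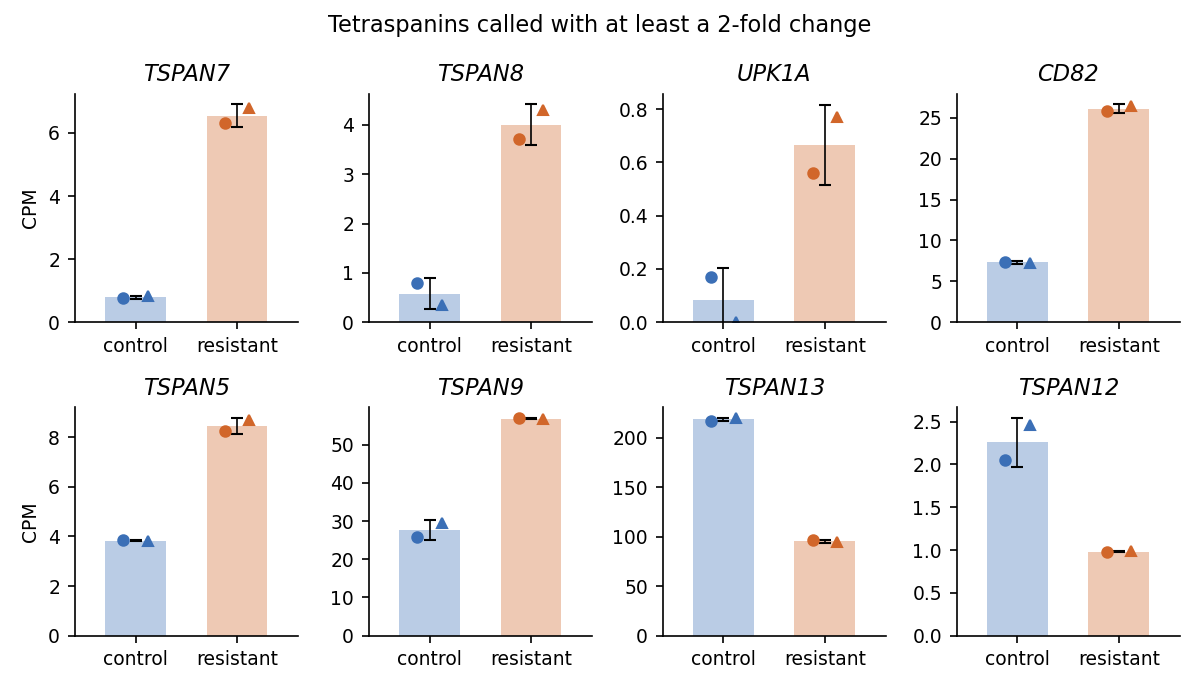
CPM of the 8 tetraspanins called with at least a 2-fold change, with bars for group means, whiskers for the SD (n = 2) and points for replicates 1 (circles) and 2 (triangles), each panel on its own axis from 0. The first 6 panels are rises and the last 2, TSPAN13 and TSPAN12, are falls. The panels were chosen by these calls, so the gap between the groups in each is not a separate result. UPK1A passed the filter through the resistant group alone.

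**Figure D4:**
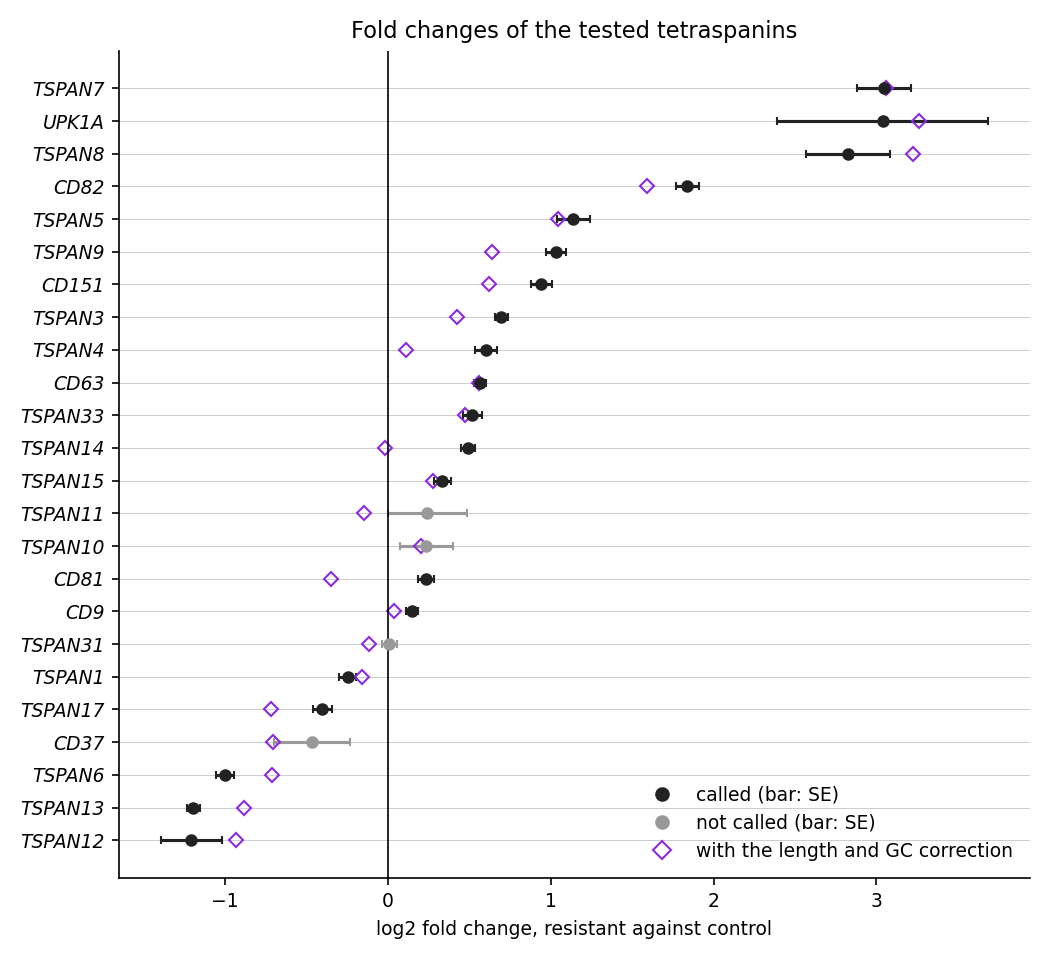
Log2 fold change of each of the 24 tested tetraspanins, resistant against control, with the SE as bars, and diamonds for the value with the length and GC correction. Black points were called at an adjusted p below 0.05. The diamond of CD81 lies at -0.35, on the other side of 0 from its point, and that of TSPAN14 lies at -0.02.

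Promoter windows of 4 of these members are shown because 3 of them rose and 1 fell by over 2-fold while their start sites differ in sequence makeup. They are the 250 bases before the RefSeq start (GRCh38.p14), 5′ to 3′ on the gene's strand, and the table used held windows of 23 of the 31 members. A RefSeq start can lie inside the span GENCODE gives, as for CD82 and TSPAN8. Capitals mark matches on either strand to the GC box GGGCGG, to AGAACA (the hexamer of the androgen response element), to the AP-1 site TGANTCA or to the TATA box TATAAA. CD82 lies at chr11:44565413-44565662 (plus strand), TSPAN5 at chr4:98658612-98658861 (minus), TSPAN8 at chr12:71158000-71158249 (minus) and TSPAN13 at chr7:16753505-16753754 (plus).
CD82: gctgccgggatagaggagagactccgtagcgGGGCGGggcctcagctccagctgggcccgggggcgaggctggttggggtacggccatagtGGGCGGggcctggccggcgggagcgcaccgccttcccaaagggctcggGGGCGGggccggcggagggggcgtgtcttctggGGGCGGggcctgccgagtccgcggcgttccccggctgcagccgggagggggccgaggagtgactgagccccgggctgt
TSPAN5: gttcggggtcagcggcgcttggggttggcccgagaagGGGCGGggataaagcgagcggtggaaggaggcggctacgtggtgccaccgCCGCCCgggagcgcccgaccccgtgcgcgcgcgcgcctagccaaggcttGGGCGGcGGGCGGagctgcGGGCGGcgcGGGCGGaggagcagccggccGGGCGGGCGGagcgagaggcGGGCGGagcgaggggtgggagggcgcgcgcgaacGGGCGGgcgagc
TSPAN8: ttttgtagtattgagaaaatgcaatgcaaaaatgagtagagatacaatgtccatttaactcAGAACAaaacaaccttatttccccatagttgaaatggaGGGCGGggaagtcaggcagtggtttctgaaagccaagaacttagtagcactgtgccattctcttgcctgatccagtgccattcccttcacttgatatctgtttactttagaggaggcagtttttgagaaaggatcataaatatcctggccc
TSPAN13: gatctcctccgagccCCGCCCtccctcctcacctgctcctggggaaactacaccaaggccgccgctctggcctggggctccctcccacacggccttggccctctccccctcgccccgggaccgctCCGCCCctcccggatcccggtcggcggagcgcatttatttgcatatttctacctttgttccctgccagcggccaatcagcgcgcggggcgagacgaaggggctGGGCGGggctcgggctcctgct

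The windows of CD82 and TSPAN5 are 77.2% and 80.0% G and C, with 26 and 43 CG dinucleotides and 4 and 10 GC boxes. The capitals of 2 TSPAN5 boxes run together. TSPAN13, which fell, has a window of 70.0% G and C with 3 GC boxes. TSPAN12, which also fell by over 2-fold, has a window of 50.8% G and C without a GC box. The window of UPK1A, which rose, holds no GC box either. A relation of GC boxes to the direction of change was not tested. The TSPAN8 window shown is 40.8% G and C with 1 CG dinucleotide, and it holds 1 GC box and 1 AGAACA. A second RefSeq start of TSPAN8 has a window without any of these letters. Over 34943 windows of the same length, the median G and C content was 58.0%, and 42.5% held a GC box, 12.4% AGAACA, 6.6% the AP-1 letters and 10.8% the TATA letters. Of the 23 members, 15 had a GC box in at least 1 window, 5 AGAACA, 2 the AP-1 letters and 1, UPK1A, the TATA letters. These members have 43 windows, and a member with several windows has more places for a match. The counts of members are thus not comparable with the shares of single windows. A match is a string of letters in a window and not a measured binding site.

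Genes whose products act with tetraspanins were counted from 9 lists, here called partner lists. Not all of their genes are direct partners. The lists also take in substrates of ADAM10, the ligand gene NDP, and PRPH2 and ROM1, tetraspanins outside the naming rule. Of 72 genes, 65 passed the filter, 45 were higher and 7 lower in resistant cells, against 33.0% and 31.7% of all genes tested, and the median log2 fold change was 0.57. With the length and GC correction 11 were lower. The lists were chosen with earlier results of these data known, and their counts are a description.

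Of 8 integrins, among them partners of CD151 and CD9, 7 were called higher and ITGA7 was not called, at a log2 fold change of -0.003. The share higher was 87.5%, beside 33.0% of all genes tested and 42.3% of protein-coding genes tested. ITGB4 and ITGA3, a subunit of the laminin receptor of hemidesmosomes and the main partner of CD151, had log2 fold changes of 1.63 (from 5.27 to 16.4 CPM) and 1.48 (from 7.67 to 21.3 CPM), and ITGA6 had 0.64. With the correction ITGA3 had 0.89 and ITGB4 1.11. Of the 4 immunoglobulin partners of CD9 and CD81, 3 were called higher, where 33.0% of all genes tested and 42.3% of protein-coding genes tested were. PTGFRN rose from 68.7 to 139 CPM (log2 fold change 1.01), IGSF8 from 12.5 to 25.6 CPM (1.03) and IGSF3 from 18.7 to 55.3 CPM (1.57), while CD101 was not called, at 0.076. PTGFRN and IGSF8 bind CD9 and CD81 directly.

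ADAM10, the client of the TspanC8 group, rose from 188 to 338 CPM (log2 fold change 0.85, edgeR adjusted p = 5.92e-09). Of the 10 genes in the list of ADAM10 and its substrates, 9 were tested, with 7 higher, 1 lower and 1 not called. Calls covered 88.9% of those tested, beside 64.7% of all genes tested and 73.7% of protein-coding genes tested. BTC, the growth factor betacellulin, had a log2 fold change of 1.86 from a low level (0.755 to 2.73 CPM), and the receptors NOTCH3 and NOTCH2 had 1.58 and 0.93, or 0.96 and 0.45 with the correction. The growth factor EGF was the 1 lower gene, at -0.83. CDH2, or N-cadherin, was at most 0.021 CPM as a group mean and was not tested.

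Of 18 other membrane partners, 15 were tested, with 8 higher, 2 lower and 5 not called. The called share was 66.7%, beside 64.7% of all genes tested and 73.7% of protein-coding genes tested. TGFA, the MET receptor and ERBB2 had the largest rises, with log2 fold changes of 1.41, 1.31 and 1.29, the last 0.77 with the correction. EPCAM and CLDN7, which form a complex with CD9 and TSPAN8 in epithelial tumour cells, were not called, at group means of 93.7 and 93.7 CPM and of 170 and 155 CPM. CD46 fell (log2 fold change -0.56), as did IFITM1 (-1.02).

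All 18 genes of exosomes and multivesicular bodies were tested, and 13 were higher, 1 lower and 4 not called, with a median log2 fold change of 0.45. Calls covered 77.8% of them, beside 64.7% of all genes tested and 73.7% of protein-coding genes tested. The syndecans SDC4 and SDC1, which recruit syntenin to budding vesicles, rose by log2 fold changes of 1.62 and 1.26, and FLOT2, a flotillin, by 1.09. The 1 lower gene was TSG101, a subunit of the ESCRT-I sorting complex, at -0.66. Of the cytoplasmic partners, the palmitoyltransferase ZDHHC2, the lipid kinase PI4K2A and protein kinase C alpha (PRKCA) were higher by log2 fold changes of 0.72, 0.65 and 0.93, the last 0.57 with the correction. ROM1, a tetraspanin of the retina that the naming rule does not take in, was called lower (-0.46 on the log2 scale, edgeR adjusted p = 0.0124), and this call ended in 5 of 12 other settings. PRPH2, its partner in photoreceptor discs, did not pass the filter.

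**Figure D5:**
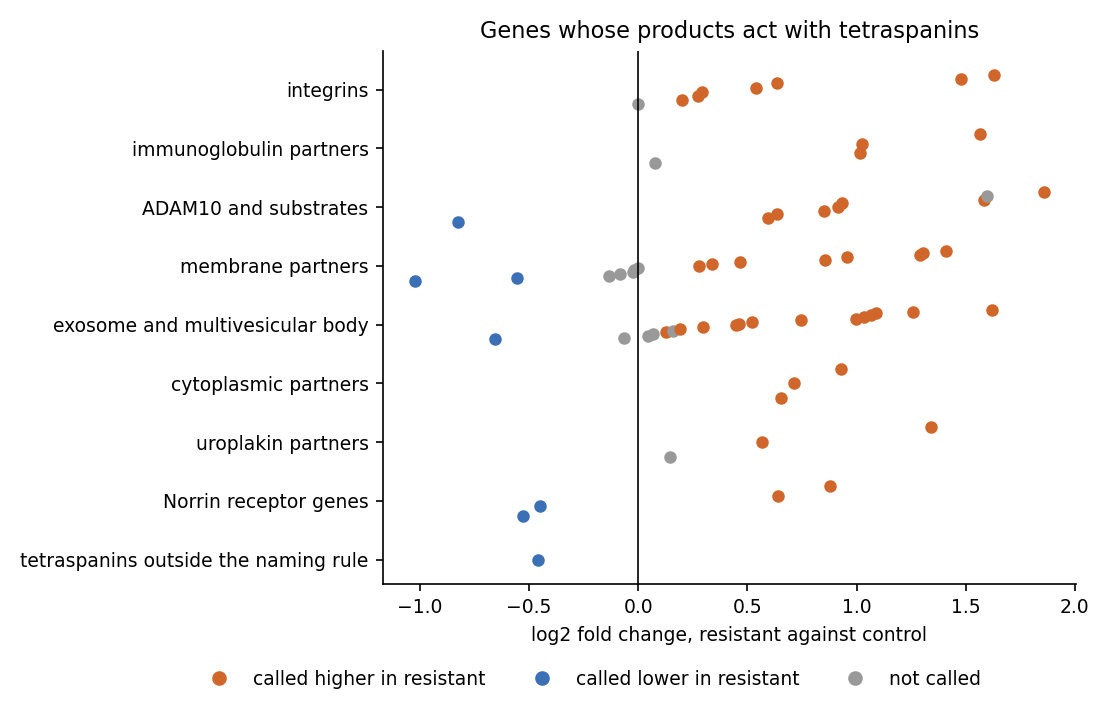
Log2 fold change, resistant against control, of each tested gene of the 9 partner lists, 1 point a gene, with colour for the call at an adjusted p below 0.05. Points lie mostly to the right of 0 in the integrin, immunoglobulin partner, ADAM10 and exosome rows, and the lower genes include EGF, CD46, IFITM1, TSG101 and FZD4.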

How the data were processed

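RNA of 2 control and 2 resistant C4-2 libraries was analysed. Each library came with a table of raw gene counts as the authors deposited it. STAR 2.5.2b, HTSeq and GRCh38 (hg38) are named, per the submitters' processing notes. Strand, counting mode and gene models were not given in the sources used here, so reads in exons shared between genes may be lost or split. The 5 closing rows of each table, which are not genes, stayed out of library sizes and tests.

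Identifiers were matched without version to GENCODE 29 (56753 of 60483), which also gave positions, merged exonic lengths and GC content, all 31 tetraspanins included. After filterByExpr (minimum count 10) and TMM scaling, edgeR 4.0.16 (R 4.3.3) gave a quasi-likelihood test, with group as the only term and 2 residual degrees of freedom. Benjamini-Hochberg adjustment covered all 20325 genes that passed, and calls are at an adjusted p below 0.05. The SE is the size of the log2 fold change divided by the root of F. CPM uses TMM-scaled library sizes. The scripts were tested on simulated data. Other settings were total count scaling, DESeq2 1.42.0, other filters, a replicate block, each library left out, a smooth length and GC offset (mgcv 1.9.3) and a test against a 1.5-fold change.

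Full values are given for CD9, CD63, CD81, CD82, CD151, TSPAN1, TSPAN8 and TSPAN13, for the 5 members with the highest level per kilobase and for every called member with at least a 2-fold change. Up to 3 called genes a partner list were named by fold change, if their mean log2 CPM reached 1, and other partners named were chosen after their values were seen. The members and lists were chosen with earlier results of these data known.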

Additional observations from a re-analysis of the deposited data

How the results depend on the processing

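Total count scaling shifted the median over all genes upward by 0.188 (log2), and with it the calls; 17 tetraspanins were then higher and 4 lower, with a median of 0.60. The median was 0.51 without a count filter, 0.28 with a filter of 1 CPM, 0.16 with the length and GC correction, and 0.42 to 0.57 when 1 library was left out. These medians cover different sets: 30 members without a filter, 23 with the 1 CPM filter and 24 with the correction. The set also varied with the library left out, so a shift can come from the members that enter. The correction gave 8 lower tetraspanins and 11 lower partner genes, and turned CD81 (-0.35), TSPAN14 (-0.021), TSPAN11 (-0.15) and TSPAN31 (-0.11). TSPAN31 was also at -0.039 with the 1 CPM filter. The causes were not tested. A test against a 1.5-fold change, which asks for more than any change, left 8 tetraspanins higher and 3 lower, 26 and 2 partner genes, and 2214 and 2504 of all genes. Of members not called, TSPAN10 ranged from -0.012 to 0.51 and TSPAN11 from -0.017 to 0.63 as each library was left out.

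Replicate numbers are shared between the groups, but the labels do not say that they mark a pair, and same-numbered deviations from the group means correlated at -0.182 over 11907 genes. With the replicate block 15 tetraspanins were higher and 5 lower, and over all genes 6647 and 6444. A crossed pairing, added after seeing the data, gave 15 and 5, and 6988 and 6753. No tetraspanin call changed with either. With DESeq2 the same 15 and 5 were called. Leaving out a library leaves 1 sample in a group, which is then assumed to vary like the other group. At this depth the 7 untested members had 0 to 19 counts a library, too few to pass the filter, and no depth was varied.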
